A study of Mus musculus with 6 samples.

Results

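The genes examined were 10 that recur in published signatures of intestinal tuft cells, namely Lrmp, Sh2d6, Sh2d7, Nrep, Nradd, Plac8, Kctd12, Tspan6, Plk2 and Crip1. They were chosen as genes outside the taste, eicosanoid and kinase pathways, although Plk2 is itself a kinase. They were listed by name, with earlier results of these data known. The expression table held 9 of the 10 genes among its 23420, and Sh2d6 was not found in it under that symbol. The values came from 6 libraries of 1 group, each from tuft cells of the ileum of Gfi1b-eGFP/+ mice. The mice had the C57BL/6J background, and the study used mice of 6 to 12 weeks of age. These mice carry 1 Gfi1b allele that expresses green fluorescent protein, so the sort selects cells in which the Gfi1b locus is active. Cells positive for GFP and EpCam and negative for CD45 and propidium iodide were sorted directly into lysis buffer. No treatment or other genotype was sequenced here, so the comparisons are between genes within a library and between libraries.

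Tuft cells are rare chemosensory cells of the epithelium. They sense luminal signals through a taste-like cascade that ends in calcium release and opening of the channel TRPM5, and they answer with IL-25, eicosanoids and acetylcholine. The genes described here are used as markers of these cells although what most of them do in the cells is not settled. Lrmp is a membrane protein of the endoplasmic reticulum that was first described in lymphoid cells. Sh2d6 and Sh2d7 carry an SH2 domain, the module that binds phosphorylated tyrosine. Kctd12 is an auxiliary subunit of GABA-B receptors, Tspan6 is a tetraspanin of cell membranes, and Nradd is a relative of the neurotrophin receptor p75 with a death domain. Plk2 is a polo-like serine/threonine kinase. Crip1 is a small LIM-domain protein first cloned from intestine, Plac8 is a small cysteine-rich protein found in placenta, myeloid and lymphoid cells, and Nrep is a small protein linked to nerve regeneration.

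The libraries had 13044 to 13308 genes listed above 0. The ribosomal RNA precursor Rn45s took 23.1% to 32.6% of each library's TPM, the transcripts of a gene per 1000000 transcripts, and Gm20594 took 1.56% to 2.13% in replicates 1 to 3 and 5.18% to 5.64% in replicates 4 to 6. All 14 tuft cell markers of a list were above 0 in every library, with a summed level of 7022 to 11880 TPM. Among them were Trpm5 (1141 ± 211 TPM) and Alox5ap (1030 ± 370 TPM; mean ± SD, n = 6 each). Transcripts of other epithelial cells were present as well. The summed levels were 4089 to 26976 TPM for 7 Paneth cell genes, led by Defa24, Defa22 and Defa17, 5855 to 14822 TPM for 8 enterocyte genes, led by Fabp1, Apoa1 and Fabp2, 778 to 4318 TPM for 7 goblet cell genes, led by Zg16, Tff3 and Agr2, and 336 to 813 TPM for 6 stem and crypt genes, led by Olfm4, Lgr5 and Smoc2. The 9 enteroendocrine genes, led by Sct, Gcg and Chgb, summed to 379 to 535 TPM. Most of this was Sct, at 331 to 474 TPM, while Gcg, the next, averaged 18.2 TPM. Of the 9 genes, 3 were above 0 in every library. The 8 T cell genes found in the table, led by Gzma, Gzmb and Lck, summed to 31.4 to 229.6 TPM, and 6 B cell and myeloid genes, led by Itgam, Lyz2 and Csf1r, to 15.02 to 29.4 TPM, with Ms4a1 at 0 in all libraries. In such bulk libraries, fewer cells of a type and less RNA per cell cannot be told apart. The depth of the libraries is unknown, because TPM holds no read numbers.

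All 9 genes in the table were above 0 in every library, as were 47.2% of all genes. Of the 9, 8 averaged 100 TPM or more, a level reached by 4.5% of all genes, and Nradd was the exception. Together the 9 genes took 1.00% to 1.51% of each library's TPM. Crip1 alone ranked 5 among all genes by mean TPM, followed by Plac8 at rank 86, Lrmp at 127 and Sh2d7 at 168. Tspan6, Kctd12 and Plk2 followed at ranks 237, 276 and 300, Nrep at rank 899 and Nradd at rank 3920.

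**Figure D1:**
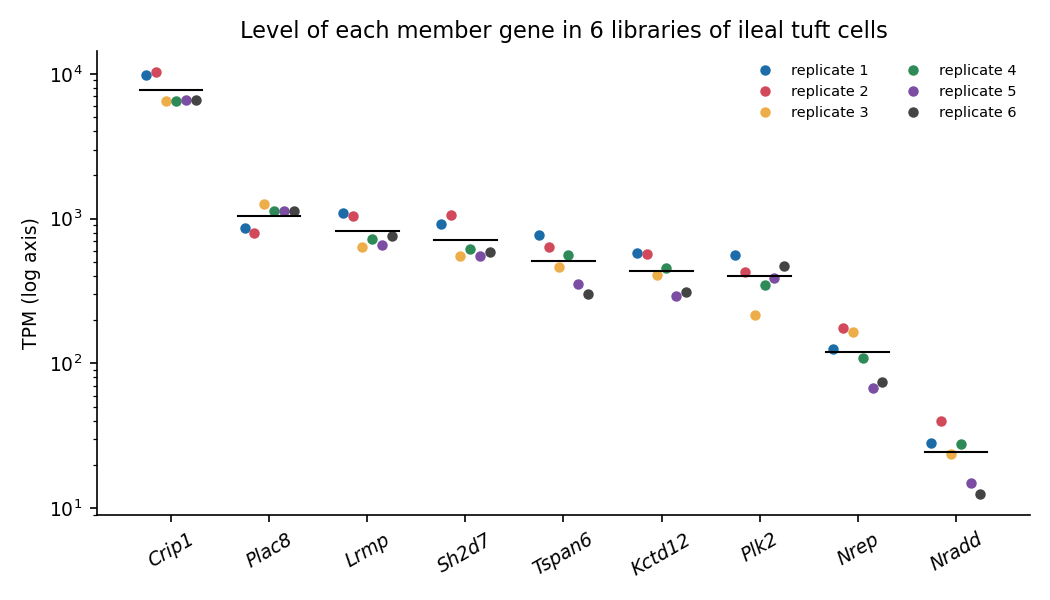
TPM of each gene on a log axis, with 1 coloured point for each of the 6 libraries and a black line at the mean. Crip1 lies above all other genes in every library, from 6517 to 10324 TPM, and Nradd below all others, from 12.5 to 39.9 TPM.

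Sequence before the transcription start was compared for the genes with an entry in the RefSeq promoter table (GRCm38.p6), which held 8 of the 10 genes and not Lrmp or Nrep. In the 250 bases before each start, 3 motifs were searched on both strands. These were the octamer ATGCAAAT, the letters bound by POU-domain factors, a class that holds the tuft cell factor Pou2f3; TATAAA; and GGGCGG, the GC box. The octamer was found in Kctd12 and Nradd, and in 1.6% of all 32851 promoter windows. TATAAA was found in Sh2d7 and in 12.4% of windows, and the GC box in Crip1, Kctd12, Nradd and Plk2 and in 32.7% of windows. Windows of Plac8 (2 starts), Sh2d6 and Tspan6 held none of the 3. The 3 windows with an octamer or TATAAA are shown 5′ to 3′ on the strand of the gene, with those letters in capitals. They are from chr14:102982638-102982887 (minus strand), chr9:110624453-110624643 (minus strand) and chr9:54533873-54534122 (plus strand), and the last 59 bases of the Nradd window, which lie inside its GENCODE M21 gene model, are left out.
Kctd12: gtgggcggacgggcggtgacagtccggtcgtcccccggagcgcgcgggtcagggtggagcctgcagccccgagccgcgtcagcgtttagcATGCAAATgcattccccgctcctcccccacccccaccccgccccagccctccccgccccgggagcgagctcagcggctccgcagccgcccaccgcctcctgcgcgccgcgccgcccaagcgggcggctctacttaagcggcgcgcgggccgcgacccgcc
Nradd: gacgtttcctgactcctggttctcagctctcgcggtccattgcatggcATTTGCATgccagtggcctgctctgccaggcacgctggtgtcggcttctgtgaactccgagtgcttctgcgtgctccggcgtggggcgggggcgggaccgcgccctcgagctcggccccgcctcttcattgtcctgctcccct
Sh2d7: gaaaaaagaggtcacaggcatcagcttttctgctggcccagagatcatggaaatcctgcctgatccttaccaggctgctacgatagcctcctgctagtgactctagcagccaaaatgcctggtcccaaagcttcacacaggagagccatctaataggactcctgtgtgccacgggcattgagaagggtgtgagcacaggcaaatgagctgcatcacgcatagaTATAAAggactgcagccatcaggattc
Position -1 is the last base before the start. The octamer of Kctd12 begins at position -160 on the strand of the gene, that of Nradd at position -202 and reads ATGCAAAT on the opposite strand, and TATAAA of Sh2d7 begins at position -27. G and C made up 77.6% of the Kctd12 window, 66.4% of the Nradd window and 51.2% of the Sh2d7 window, over all 250 bases. These matches are letters only and no factor binding was measured. GENCODE M21 annotates the same assembly, and the RefSeq start of Sh2d7 lies upstream of the start given there, at -4861 bases from it. The Sh2d7 window shown thus lies outside the gene coordinates given below. The windows of Crip1, Sh2d6 and 1 of the 2 Plac8 starts lie wholly inside the GENCODE gene models. Their RefSeq starts are 5696, 1671 and 9149 bases downstream of the GENCODE starts. The other Plac8 start is 40 bases downstream.

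Lrmp (ENSMUSG00000030263.13) is on chromosome 6 (GRCm38, 145115653 to 145174934, plus strand), and shares 101 exonic bases with Casc1 and 60 with Gm43910, both on the opposite strand. Lrmp stood at 1100, 1046, 638, 719, 661 and 754 TPM in replicates 1 to 6, and averaged 820 ± 201 TPM (SD, n = 6). Replicates 1 and 2 were the highest, and the other 4 libraries lay close together. Casc1 was at 0 to 0.36 TPM and Gm43910 was not found in the table. Lrmp is known to bind IP3 receptors, the calcium release channels of the endoplasmic reticulum. Of 4 genes listed as related, Itpr2 had 64.5 ± 13.6 TPM, Itpr3 19.8 ± 5.49 TPM and Itpr1 1.59 TPM, and Mrvi1, the closest relative of Lrmp, was at 0 in all libraries. The TPM of Lrmp was 9.43 to 16.6 times that of Itpr2. Lrmp is also used as a lymphoid gene. Cd3e, which encodes a subunit of the T cell receptor complex, was at 4.38 TPM on average, and the TPM of Lrmp was 64.9 to 435 times that of Cd3e. Other T cell genes were higher than Cd3e on average, with Gzma at 10.4 to 158 TPM, Gzmb at 3.54 to 30.1 TPM and Lck at 0.73 to 16.5 TPM. Cd3d, Cd8a and Cd8b1 had lower means than Cd3e. Gzma was highest in replicates 5 and 6, at 141 and 158 TPM. What part of the Lrmp level came from lymphoid cells was not tested.

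Sh2d7 (ENSMUSG00000046460.14; chromosome 9, 54538984 to 54545020, plus strand) stood at 919, 1051, 549, 613, 550 and 589 TPM in replicates 1 to 6, and averaged 712 ± 217 TPM (SD, n = 6). As for Lrmp, replicates 1 and 2 stood above the rest. Of its 2759 exonic bases, 227 overlap Cib2 on the opposite strand. Cib2 was at 9.35 to 20.1 TPM, and the TPM of Sh2d7 was 30.5 to 66.6 times that of Cib2. Other SH2-domain proteins were less abundant. Of 11 related genes, 4 were at 0 in all libraries and 4 had a mean of at least 1 TPM. The B cell adaptor Blnk had 80.0 ± 23.8 TPM, Sh2d4a 14.98 ± 4.97 TPM and Sh2d3c 1.99 TPM. The TPM of Sh2d7 was 6.51 to 12.1 times that of Blnk in the same library.

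Kctd12 (ENSMUSG00000098557.1; chromosome 14, 102976581 to 102982637, minus strand) ranged from 293 to 583 TPM with a median of 431 TPM. It was highest in replicates 1 and 2 and lowest in replicates 5 and 6. The GENCODE model is a single exon of 6057 bases. It shares 3805 bases with the non-coding gene Gm26778 on the opposite strand, which was not found in the table, and without strand the reads of the 2 genes cannot be told apart. The other KCTD subunits of GABA-B receptors, Kctd8, Kctd12b and Kctd16, were at 0 in every library. Of the receptor subunits themselves, Gabbr1 had 6.64 ± 2.10 TPM (SD, n = 6) and Gabbr2 was at 0 in all libraries. Kctd12 thus exceeded Gabbr1 in TPM by 30.9 to 90.3 times.

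Tspan6 (ENSMUSG00000067377.12; chromosome X, 133891068 to 133898429, minus strand) ranged from 304 TPM in replicate 6 to 769 TPM in replicate 1, with a median of 513 TPM. Among 26 other tetraspanins, 22 were above 0 in some library and 1, Tspan8, had a higher mean than Tspan6. Tspan8, at 1069 ± 173 TPM, exceeded Tspan6 in 6 of 6 libraries. Tspan1, at 195 ± 43.7 TPM, and Tspan3, at 181 ± 53.9 TPM, lay below Tspan6 in 6 of 6 libraries (SD, n = 6 each). The ratio of Tspan6 to Tspan3 stayed between 2.62 and 3.02, and the ratio of Tspan6 to Tspan1 ran from 1.67 to 5.74.

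Nradd (ENSMUSG00000032491.14; chromosome 9, 110621135 to 110624452, minus strand) was the least abundant of the 9 genes, at 28.2, 39.9, 23.7, 27.8, 14.8 and 12.5 TPM in replicates 1 to 6. It had the widest relative spread, with a highest value 3.20 times the lowest, and replicates 5 and 6 were the lowest. The death domain receptor Unc5b was at a like level, 23.6 ± 7.81 TPM, and above Nradd in 2 of 6 libraries, since Nradd was higher in 4. Ngfr, the gene of p75 itself, had a mean of 1.21 TPM and lay under 0.3 TPM in 4 of 6 libraries. Unc5c and Unc5d were at 0 throughout.

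Plk2 (ENSMUSG00000021701.8; chromosome 13, 110395046 to 110400844, plus strand) stood at 565, 429, 215, 350, 390 and 469 TPM in replicates 1 to 6, and averaged 403 ± 118 TPM (SD, n = 6). Replicate 3 was the lowest. Plk2 was the most abundant of the 5 polo-like kinase genes in every library. Plk1, which drives mitosis, had 19.3 ± 13.1 TPM, Plk4, which controls centriole duplication, 3.83 ± 3.42 TPM and Plk3 2.50 ± 2.37 TPM (SD, n = 6 each), and Plk5 was at 0 in all libraries. Plk1 was highest in replicate 3, at 43.2 TPM, and lowest in replicate 1, at 4.92 TPM, so that the ratio of Plk2 to Plk1 ran from 4.99 in replicate 3 to 115 in replicate 1.

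**Figure D2:**
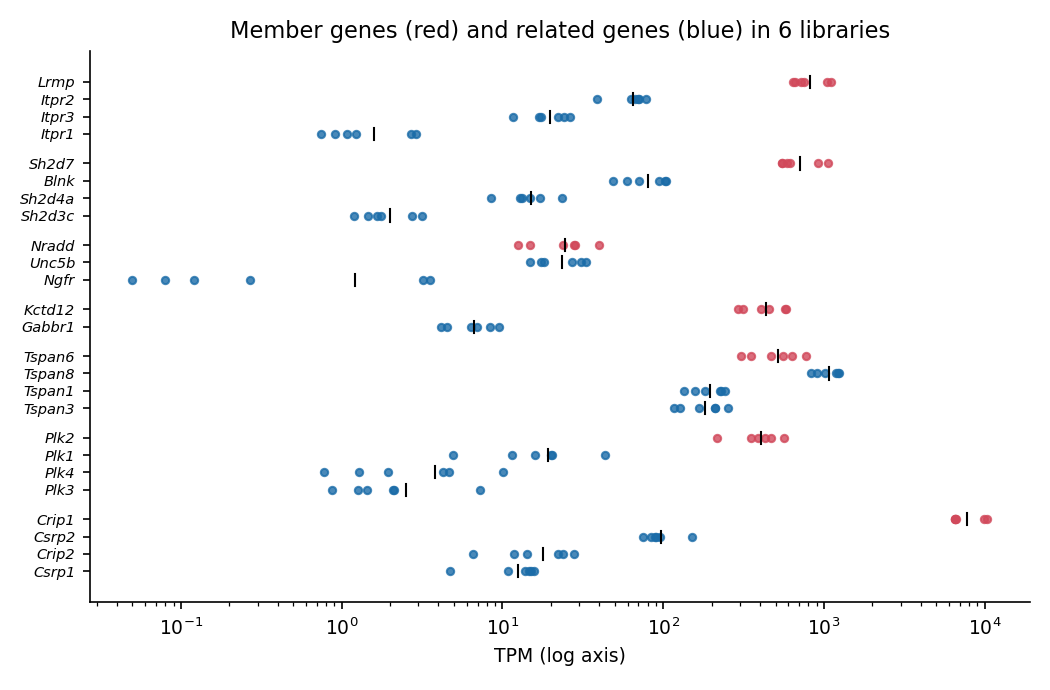
TPM on a log axis of 7 of the genes (red) and of up to 3 of their most abundant relatives (blue), with 1 point for each of 6 libraries and a black line at the mean. Tspan8 lies to the right of Tspan6 and Unc5b overlaps Nradd, and every other relative shown lies to the left of its red gene.

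Crip1 (ENSMUSG00000006360.11; chromosome 12, 113146316 to 113153879, plus strand) stood at 9825 and 10324 TPM in replicates 1 and 2 and at 6517, 6528, 6569 and 6617 TPM in replicates 3 to 6. The last 4 libraries were within 101 TPM of one another, and the gap to replicates 1 and 2 made up 84.2% of the whole range. Its LIM-domain relatives were far lower, with 97.4 ± 26.9 TPM of Csrp2, 17.8 ± 8.18 TPM of Crip2 and 12.4 ± 4.13 TPM of Csrp1 (SD, n = 6 each), and Crip3 and Csrp3 were at 0. Crip1 is also expressed by other cells of the gut, and how its transcripts divide among cell types was not measured.

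Plac8 (ENSMUSG00000029322.12; chromosome 5, 100553725 to 100572245, minus strand) went the other way. It stood at 855 and 790 TPM in replicates 1 and 2 and at 1253, 1121, 1124 and 1126 TPM in replicates 3 to 6, and averaged 1045 ± 181 TPM (SD, n = 6). Replicates 1 and 2 were thus the lowest. The summed goblet cell genes were also lowest in these libraries, at 996 and 778 TPM against 1857 to 4318 TPM in the other 4. Of the 7 goblet cell genes, Zg16, Tff3, Agr2 and Muc2 were each lowest in replicates 1 and 2 and Fcgbp, Clca1 and Spdef were not, and their part in the level of Plac8 was not tested. Of 4 genes listed for comparison with Plac8, Plac8l1 and Cnfn were at 0, and Plac9a and Plac9b had means of 1.11 and 1.68 TPM. The ratio of Crip1 to Plac8 was 11.5 and 13.1 in replicates 1 and 2, and 5.20, 5.82, 5.84 and 5.88 in replicates 3 to 6.

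Nrep (ENSMUSG00000042834.15; chromosome 18, 33437019 to 33464029, minus strand) followed neither pattern. It stood at 126, 175, 166, 109, 67.5 and 74.5 TPM in replicates 1 to 6, so that replicates 2 and 3 were the highest and replicates 5 and 6 the lowest. The summed stem and crypt genes were at 735, 813, 785, 613, 470 and 336 TPM in the same libraries, also highest in replicates 2 and 3 and lowest in replicates 5 and 6. Most of this sum was Olfm4, at 650 and 659 TPM in replicates 2 and 3 and at 356 and 235 TPM in replicates 5 and 6. The other 5 genes of the list did not share this order, with Axin2 highest in replicate 4 and Slc12a2 lowest in replicate 3. The part of these genes in the level of Nrep was not tested.

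**Figure D3:**
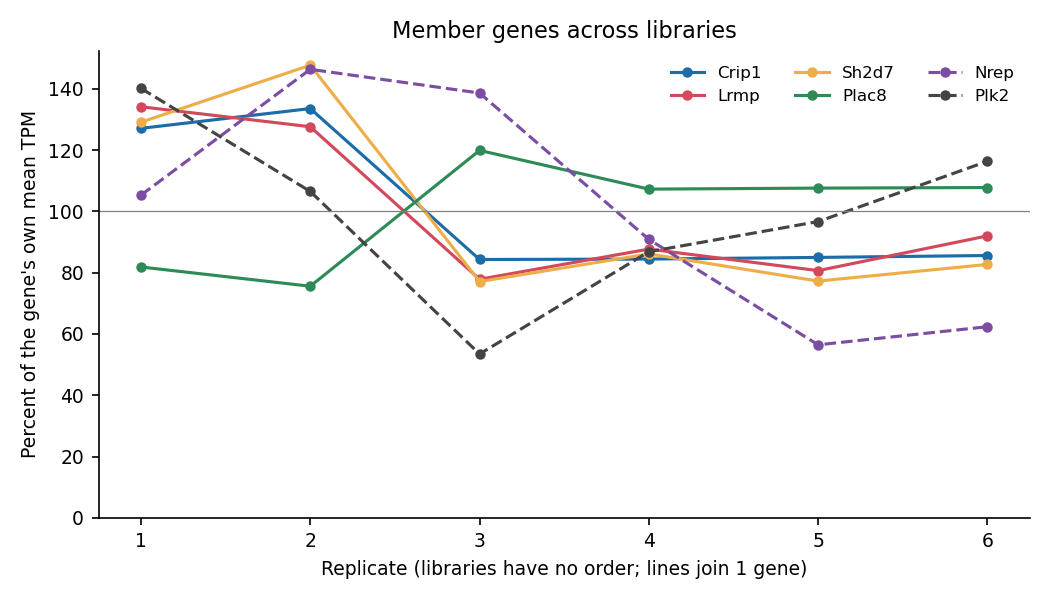
Level of 6 of the genes in each library as a percent of the gene's own mean over 6 libraries, on a linear axis from 0. Crip1, Lrmp and Sh2d7 lie highest in replicates 1 and 2, Plac8 lies lowest there, Nrep is highest in replicates 2 and 3, and Plk2 is lowest in replicate 3.

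The order of the levels was tested over all 36 pairs of genes, on the scale of log2(TPM + 1), with an exact permutation test (two-sided) that flips the sign of the difference within each library. In 30 pairs the same gene was higher in 6 of 6 libraries. These 30 pairs passed the threshold of 0.05, at the smallest p that 6 libraries allow (exact permutation p = 0.03125, adjusted p = 0.0375). The labels number the libraries as mouse replicates and do not say whether a library was 1 mouse or a pool, and the p-values measure the spread between these libraries. Crip1 exceeded Plac8, the next gene, by 2.87 ± 0.579 on the log2 scale (SD, n = 6). Sh2d7 exceeded Tspan6 by 0.49 ± 0.329, Plk2 exceeded Nrep by 1.78 ± 0.852 and Nrep exceeded Nradd by 2.25 ± 0.307. The other neighbours in the order missed the threshold. Plac8 was above Lrmp in 4 of 6 libraries, by 0.36 ± 0.595 (exact permutation p = 0.21875, adjusted p = 0.232). Lrmp was above Sh2d7 in 5 of 6, by 0.22 ± 0.122 (exact permutation p = 0.0625, adjusted p = 0.0703). Tspan6 was above Kctd12 in 5 of 6, by 0.21 ± 0.152 (exact permutation p = 0.0625, adjusted p = 0.0703). Kctd12 was above Plk2 in 4 of 6, by 0.13 ± 0.559 (exact permutation p = 0.625, adjusted p = 0.625). Plac8 with Sh2d7 and Tspan6 with Plk2 were the remaining pairs that missed the threshold. By the exact Mann-Whitney test, which does not pair values within a library, Plac8 differed from Lrmp (adjusted p = 0.0302) and Sh2d7 did not differ detectably from Tspan6 (adjusted p = 0.262).

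Of the 9 genes, 6 (Crip1, Lrmp, Sh2d7, Tspan6, Kctd12 and Nradd) had their 2 highest values in replicates 1 and 2, as did 15.6% of the 11047 genes above 0 in every library. Plac8 was the only one of the 9 with its 2 lowest values there, as had 5.07% of those genes. After median-of-ratios rescaling, 4 of the 9 (Crip1, Lrmp, Sh2d7 and Kctd12) had their highest values in replicates 1 and 2, against 9.65% of genes. Without Rn45s and Gm20594 the count was 5, with Tspan6 added, against 11.4%. Plac8 alone was lowest there under both rescalings, against 8.17% and 7.09% of genes. The median of the tuft cell markers moved in the same way. On the log2(TPM + 1) scale it was 8.83 and 8.85 in replicates 1 and 2 and 8.08 to 8.37 in the others. This gap was 58.4% of the range of the median. Of the 14 markers, Il25, Il17rb and Gnat3 did not have their 2 highest values in replicates 1 and 2. Il25 was highest in replicate 4, at 80.8 TPM. The summed enterocyte genes were also highest in replicates 1 and 2, at 14822 and 11181 TPM against 5855 to 9487 TPM in the others. Most of that sum was Fabp1, the only gene of the list with its 2 highest values there. The relation of a gene with the enterocyte genes alone was not tested. By the tuft cell median, the libraries thus fall into 2 sets, replicates 1 and 2 and the others. For this reason no coefficient over all 6 is given for the relation of a gene with the tuft cell list. Within the sets that relation could not be tested. Replicate 3 shares the low Gm20594 of replicates 1 and 2, so the sets are not those of Gm20594. The summed Paneth cell genes did not follow the sets either, and were highest in replicates 4 and 5, at 26976 and 16356 TPM. No relation with the summed enterocyte, goblet, Paneth and enteroendocrine genes passed the threshold for any of the 9 genes (exact permutation over 720 pairings). The lowest unadjusted exact permutation p was 0.268, for Nrep (Pearson r = -0.54, Spearman rho = -0.66 with p = 0.175, r = -0.73 without the 2 farthest libraries, adjusted p = 0.495 over 18 relations, n = 6). After centring within replicates 1 to 3 and 4 to 6, which differ in Gm20594, the r of Nrep over all 6 libraries was 0.16 (exact permutation p = 0.75). Its sign thus changed with centring, and no r was computed for either set alone. The same centring gave r = 0.98 for Tspan6 (exact permutation p = 0.0278, adjusted p = 0.25), where the uncentred r was 0.045, and r = 0.87 for Kctd12 (exact permutation p = 0.111, adjusted p = 0.286), where it was -0.085. Centring leaves 36 pairings, so 0.0278 is the smallest p it can give.

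Set against the tuft cell markers of the same library, Crip1, Lrmp and Sh2d7 had the smallest relative spread of the genes described here. Their highest values were 1.19, 1.22 and 1.29 times the lowest. Per 100 TPM of the 14 markers, Crip1 had 82.7, 95.4, 91.9, 80.1, 93.4 and 94.2 TPM in replicates 1 to 6, a coefficient of variation (SD over mean) of 7.27% where that of its TPM was 23.6%. For Lrmp the coefficient fell from 24.5% to 7.23% and for Sh2d7 from 30.5% to 10.1%. Kctd12 went from 28.3% to 12.5%, Tspan6 from 34.1% to 17.1% and Nradd from 40.9% to 28.6%. The coefficients of Plk2 (29.2% and 27.0%) and Nrep (37.6% and 37.3%) hardly changed. That of Plac8 went from 17.3% to 35.5%, with 7.20 and 7.30 TPM per 100 TPM of the markers in replicates 1 and 2 and 13.8 to 17.7 in the others. Among the 1054 genes that average 100 TPM or more, 33.8% had a smaller coefficient when scaled in this way, and 7 of the 8 genes described here at that level did. Against TPM rescaled by median of ratios or without Rn45s and Gm20594, 6 of the 8 did, with Nrep no longer among them, against 27.1% and 27.4% of genes. This scaling was chosen after the data were seen.

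**Figure D4:**
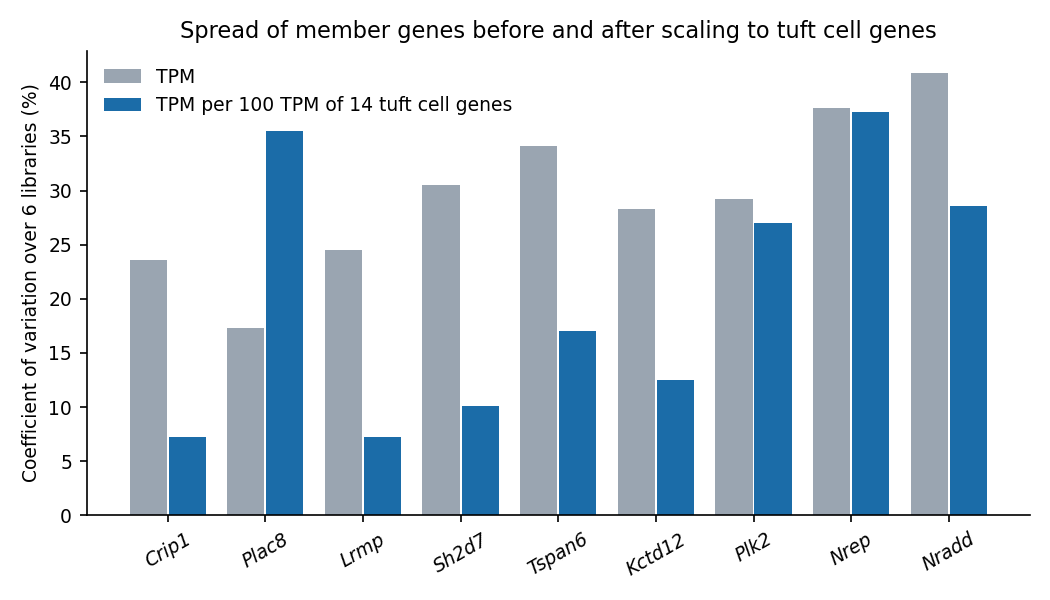
Coefficient of variation over 6 libraries, in percent from 0, for the TPM of each gene (grey bars) and for its TPM per 100 TPM of 14 tuft cell markers (blue bars). The blue bar is lower for 8 genes, to 7.23% for Lrmp and 7.27% for Crip1, and higher for Plac8, at 35.5%.

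For each gene, similar patterns over the 6 libraries were sought by Pearson's r on the log2(TPM + 1) scale among 6985 other genes that average 10 TPM or more. These are descriptions over 6 points that share library composition, and 62 to 306 genes reached an r of 0.9 for each of the 9. Crip1 was most like Tpm1 (r = 0.997), a tropomyosin gene at 226 to 343 TPM, and Mfsd6 (0.993). Lrmp was most like Nub1 (0.999) and Gm6249 (0.994), and Sh2d7 like 2010320M18Rik (0.996) and Clrn3 (0.995). Tspan6 was most like Nit1 (0.995) and its fellow tetraspanin Tspan3 (0.992), and Kctd12 was like Itm2b (0.995). Plk2 was most like Smg1 (0.996) and Matk (0.994), a tyrosine kinase gene with 1464 to 3273 TPM. Nrep was most like Smarca5 (0.996) and Zfp191 (0.995), and Nradd like Znfx1 (0.993) and Pdzd11 (0.991). Plac8 was most like Gpc4 (0.991), a glypican gene at 11.9 to 30.7 TPM, and Duox2 (0.987), an oxidase gene of enterocytes at 9.65 to 57.4 TPM.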

How the data were processed

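Tuft cells were sequenced in 6 libraries by a modified SMART-Seq2 protocol, which amplifies polyadenylated RNA along its length; the labels also name a 3' polyA and a droplet preparation. The authors aligned paired-end reads with Bowtie to the UCSC mm10 transcriptome and deposited TPM from RSEM; of the strand setting the sources used here say nothing. The submitters' processing notes also name TopHat and DESeq2. Values were used as deposited, with a pseudocount of 1 on the log2 scale. Table columns were matched to replicates by their numbers.

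The genes, the related-gene and marker lists and the tests were chosen with earlier results of these data known. Genes named are the 10, up to 3 relatives of each that average 1 TPM or more, the 3 leading markers of each list, the 2 most similar patterns of each gene and overlapping genes; Cd3e, Gm20594, Rn45s and relatives at 0 were added after values were seen. Some genes that this rule names are not reported here. Trac, Jchain and Adgre1 were not found in the table. Pairs were tested by a two-sided exact sign-flip test over 64 assignments, and relations by exact permutation, with Benjamini-Hochberg adjustment over 36 pairs and 18 relations. The study's Mann-Whitney test, other pseudocounts, rescalings and leaving out libraries were alternatives. Statistics were tested on simulated data. Gene positions are from GENCODE M21 (GRCm38) and promoters from RefSeq, matched by symbol. Computations ran in Python 3.11.15 (pandas 2.3.3, numpy 2.4.6, scipy 1.17.1), and figures were drawn with matplotlib 3.10.9.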

Additional observations from a re-analysis of the deposited data

How the results depend on the processing

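The count of 30 of 36 pairs past the threshold stayed 30 with a pseudocount of 0.1 or 0.01, with values under 0.1 TPM set to 0 and after median-of-ratios rescaling, and 31 by the exact Mann-Whitney test. For neighbouring genes, the Mann-Whitney test brought Plac8 and Lrmp past the threshold and took Sh2d7 and Tspan6 out of it; this test does not pair values within a library. Leaving out single libraries, the difference between Kctd12 and Plk2 ran from -0.032 (without replicate 3) to 0.27, and the other 7 neighbour differences kept their direction. No pair was tested on 5 libraries, where p cannot go below 0.0625. Of the 9 relations with the tuft cell list 1 passed the threshold by Pearson's r, that of Plac8 (exact permutation, adjusted p = 0.025). It rests on libraries that, by the tuft cell median, fall into the 2 sets described above. By Spearman's rho 0 relations passed, with an adjusted p of 0.05 for Plac8 (exact permutation). Without the 2 libraries farthest from the median of the list, the r of Plac8 was -0.56. The count by Pearson's r was 0 after rescaling by median of ratios, after removal of Rn45s and Gm20594, after centring within replicates 1 to 3 and 4 to 6, with the mean of the list in place of its median, and without each library in turn (0 to 0). Without any 1 library the relation of Plac8 stayed negative at the smallest p that 5 libraries allow (exact permutation p = 0.00833, adjusted p = 0.075 to 0.15), and centred it was again at the smallest p (exact permutation p = 0.0278, adjusted p = 0.25), so these counts of 0 say nothing about stability. Under the other 3 settings the adjusted p of Plac8 (exact permutation) was 0.254 after median of ratios, 0.181 without Rn45s and Gm20594 and 0.1 with the list mean. The cause of the change under these settings was not tested. The relations with the other epithelial lists passed in 0 cases under every alternative run, which for centring and for 5 libraries says little because of the same limits on p. All 9 genes reached 1 TPM in every library. Median-of-ratios rescaling and leaving out each library moved no mean by more than 1 SD, while rescaling without Rn45s and Gm20594, chosen for the means after the data were seen, raised every value, as its construction does. It moved the means by more than 1 SD, to 11178 TPM for Crip1, 1531 for Plac8, 1187 for Lrmp, 1027 for Sh2d7, 736 for Tspan6, 628 for Kctd12, 591 for Plk2, 169.99 for Nrep and 34.95 for Nradd. Unknown depth limits what can be said of relatives listed at 0. Pairs of genes were tested within libraries. No paired analysis was possible between groups, because the 6 libraries form 1 group.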
